A study of Drosophila melanogaster with 6 samples.

Results

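The transcripts described here encode the nuclear subunits of respiratory complexes III and IV and of ATP synthase, together with the genes for cytochrome c, in adult flies mutant for the estrogen-related receptor ERR. They were taken by gene name from a list of 34 names, which stand for 31 genes because 3 subunits of complex IV are listed under both a CG and a Co symbol. All 31 were found among the 13035 genes of the table: 30 under a listed symbol, and CG2249 under its cytochrome oxidase symbol CoVIIc. They comprise 7 genes of complex III, 2 of cytochrome c, 9 of complex IV and 13 of ATP synthase. The study measured poly(A) RNA of whole adult males on day 6 of adulthood, in 3 libraries of dERR mutant flies and 3 libraries of control flies, to find which adult transcripts depend on ERR. Both groups were yw, hsFLP;; dERR[conditional] / dERR2 and were fed a regular diet. They therefore shared a conditional allele over the dERR2 mutant allele and a FLP recombinase under a heat-shock promoter, which is not restricted to a cell type. The mutant flies received 1 h of heat on each of days 5 and 6 after egg laying, before adulthood, to switch the recombinase on, and the control flies were not heated. Effects of the heat itself and of losing ERR thus cannot be told apart. The labels do not say that the 3 libraries of a group came from separate crosses or cultures, so the p-values measure only the spread between these libraries, which may be technical.

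Complex III takes electrons from ubiquinol and hands them to cytochrome c, a small soluble carrier of the space between the mitochondrial membranes. Complex IV, cytochrome c oxidase, passes them on to oxygen, and the proton gradient that builds up drives ATP synthase, a rotary enzyme with a catalytic head (F1), a membrane rotor (Fo) and a peripheral stalk. Most subunits are encoded in the nucleus and a few in mitochondrial DNA, and flight muscle is the fly tissue best known for its dense mitochondria. In mammals, estrogen-related receptors are known as activators of many of these genes.

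Values are normalized counts, that is, reads divided by the authors' size factor for the library. Worked out from the steps between values, each library held about 13987814 to 16102936 reads assigned to genes, an estimate that could not be accepted as whole reads for 3 of the 6 libraries. The targeted gene ERR (FBgn0035849) had 112, 119 and 107 normalized counts in the mutant libraries, against 373, 497 and 539 in the control libraries. ERR fell by 2.03 ± 0.13 (SE) on the log2 scale (limma, adjusted p = 3.58e-06). It overlaps CG7979 by 10 bases, a gene at 44.9% of its level whose log2 change was -1.36, and the strand setting of the counting was not given in the sources used here.

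Of the 31 subunit genes 26 rose in the mutant flies and 0 fell (limma, adjusted p under 0.05), while 5 were not called: both cytochrome c genes, the complex IV subunit CG9603, and the ATP synthase subunits blw and CG1746. Across all genes 4.73% were called higher and 9.47% lower. In each of the 26, every mutant library lay above every control library, an order found in 15.7% of all genes. The log2 changes (mutant minus control) ran from -0.07 to 0.68, with a median of 0.39, against 0.00 for all genes. The members are abundant transcripts, and of the 1416 genes at least as abundant as the lowest of them 151 (10.7%) were called higher, with a median of 0.04. Together the members took 1.83, 1.92 and 1.92% of all normalized counts in the mutant libraries, against 1.46, 1.39 and 1.30% in the control libraries. All normalized counts summed to 1.39e+07 to 1.45e+07 in the mutant and 1.49e+07 to 1.53e+07 in the control libraries, which widens the gap between these shares. The authors' deposited table put the same 26 genes under an adjusted p of 0.05 and left the same 5 above it. The number called depended on the scaling: relative to cytoplasmic ribosomal protein genes it was 10, since 92 ribosomal genes had a median change of 0.16 and that scaling shifts the median of all genes to -0.145. It also fell to 18 without mutant replicate 3 or without control replicate 3. Muscle transcripts moved alongside, with 14 of 20 muscle markers higher, and the part of muscle in the changes of the subunit genes was not tested. In bulk RNA, more or fewer cells of a type and more or less RNA per cell cannot be told apart.

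**Figure D1:**
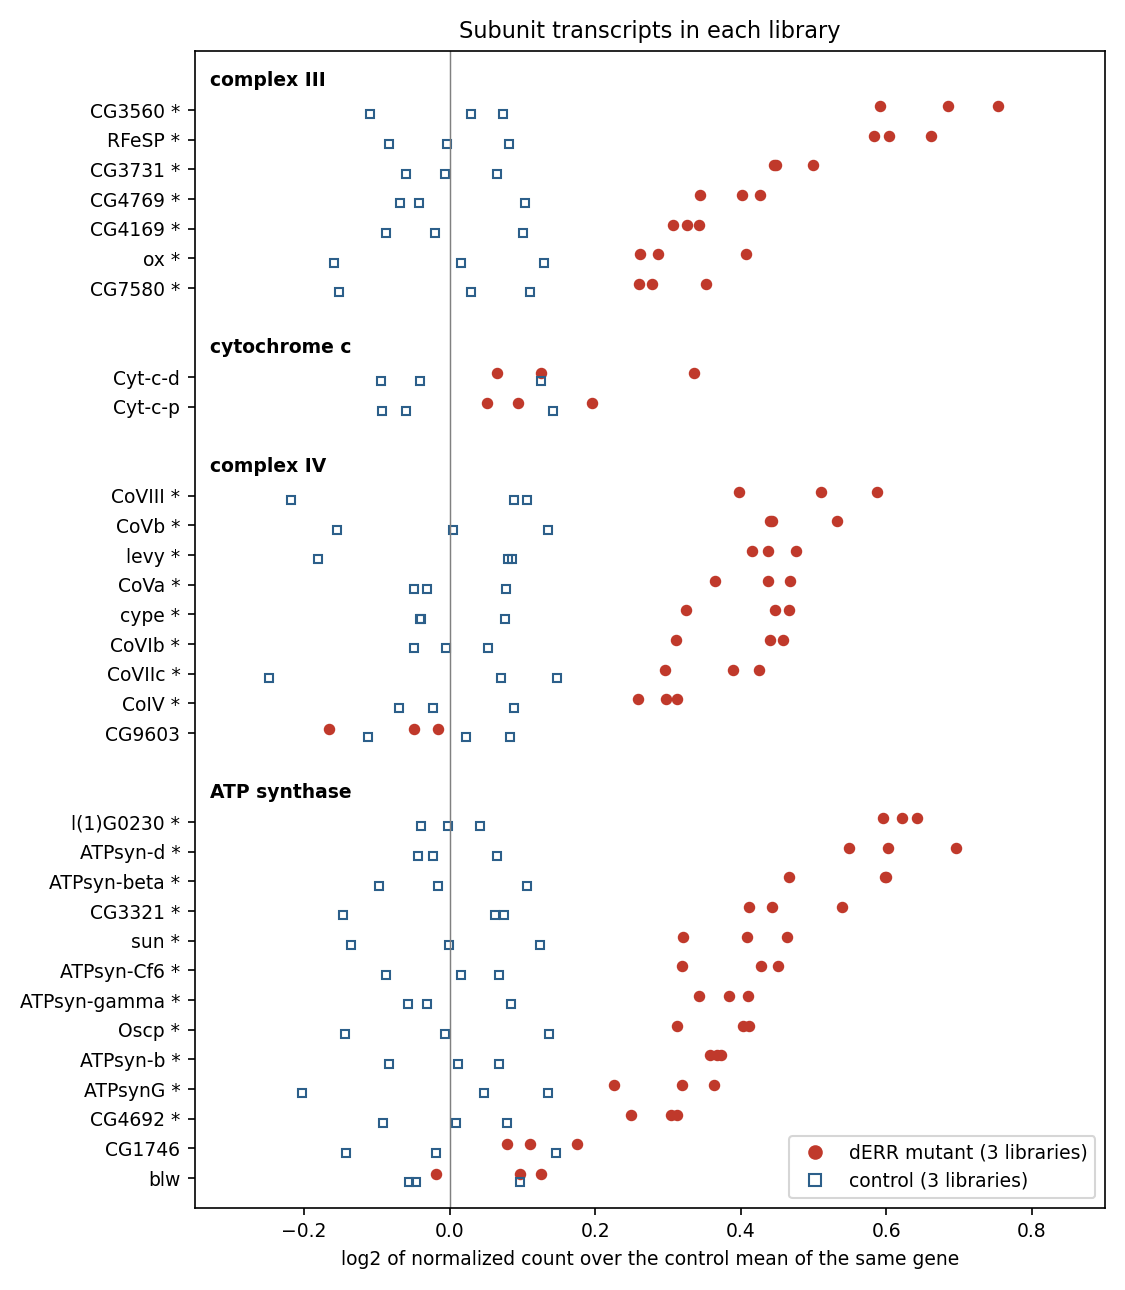
Each gene's normalized count in each library, as log2 of its ratio to that gene's control mean (horizontal axis), with mutant libraries as filled circles and control libraries as open squares. An asterisk marks the 26 genes called higher; in these all 3 circles lie right of all 3 squares, whereas the 5 genes without an asterisk overlap.

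All 7 listed nuclear genes of complex III rose, with log2 changes between 0.30 and 0.68. The 14 kDa subunit CG3560 (UQCR-14; FBgn0030733; X, 16180320 to 16181021, dm3), part of the matrix-facing side of the complex, changed most of the 31 genes. CG3560 had 6633, 7419 and 7073 normalized counts in the mutant libraries, against 4632, 4493 and 4081 in the control libraries. The means were 7041 ± 394 in the mutant and 4402 ± 286 in the control (SD, n = 3 each), a 1.60-fold difference and a log2 change of 0.68 ± 0.08 (SE; limma, adjusted p = 1.76e-04). The lowest mutant library thus stood well above the highest control library. RFeSP (FBgn0021906; 2L, 1612691 to 1614182, dm3) encodes the Rieske iron-sulfur protein, which takes the electron from ubiquinol. RFeSP had 9496, 10027 and 9633 normalized counts in the mutant libraries, against 6712, 6325 and 5988 in the control libraries. Its log2 change was 0.62 ± 0.07 (SE; limma, adjusted p = 2.33e-04), and the groups lay far apart compared with their own spread.

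The electron then passes to cytochrome c1, encoded by CG4769 (Cyt-c1), which had 7569, 8014 and 7874 normalized counts in the mutant libraries, against 6407, 5792 and 5685 in the control libraries. CG4769 rose by 0.39 ± 0.08 (log2, SE; limma, adjusted p = 0.00478). The core proteins face the matrix and carry no electrons: CG3731 (UQCR-C1) rose by 0.47 ± 0.07 and CG4169 (UQCR-C2) by 0.33 ± 0.08. CG3731 lay at 13521 to 14030 normalized counts in the mutant and 9520 to 10383 in the control libraries. CG4169 lay at 10688 to 10959 in the mutant and 8131 to 9265 in the control libraries. The small subunits CG7580 (UQCR-Q) and ox (oxen) had the smallest changes, 0.30 ± 0.08 and 0.32 ± 0.09. CG7580 had 5634, 5702 and 6006 normalized counts in the mutant libraries, against 5078, 4801 and 4236 in the control libraries. The transcript of ox had 2849, 2900 and 3151 normalized counts in the mutant libraries, against 2600, 2403 and 2129 in the control libraries. For both, control 1 lay closest to the mutant libraries and control 3 farthest from them. The calls of CG4169, CG7580 and ox each ended without mutant 3 (limma, adjusted p = 0.0648, 0.128 and 0.120), without control 2 (0.0734, 0.0670 and 0.0630) and without control 3 (0.0545, 0.128 and 0.122), so that 4 of 7 remained in each case. The call of CG7580 ended also without mutant 1 (0.0646) or mutant 2 (0.0578).

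Neither cytochrome c gene was called by limma (trend and voom), and 0 had a p under 0.05 before adjustment. Cyt-c-p (FBgn0000409; 2L, 16719873 to 16722659, dm3), the form of most tissues, had 7459, 7686 and 8246 normalized counts in the mutant libraries, against 7943, 6751 and 6909 in the control libraries. Control 1 lay above 2 of the 3 mutant libraries. The means were 7797 ± 405 in the mutant and 7201 ± 648 in the control (SD, n = 3 each). The log2 change was 0.12 ± 0.08 (SE; limma, adjusted p = 0.426) with a 95% interval from -0.07 to 0.30, and -0.032 relative to ribosomal protein genes. Cyt-c-d (FBgn0086907; 2L, 16715857 to 16719635, dm3), known for its role in caspase activation during sperm maturation, lies 237 bases from Cyt-c-p. It had 3041, 3667 and 3170 normalized counts in the mutant libraries, against 2723, 3172 and 2825 in the control libraries, and the groups overlapped through mutant 1 and mutant 3 against control 2. Its log2 change was 0.18 ± 0.09 (SE; limma, adjusted p = 0.241; 95% interval from -0.02 to 0.38). Cyt-c-d overlaps the opposite-strand gene CG31808 by 335 bases, a gene at 55.3% of its level, so its value is uncertain to that extent. How reads that match both cytochrome c genes were assigned was not given in the sources used here. Cyt-c-d made up 29.0, 32.3 and 27.8% of the cytochrome c counts in the mutant libraries, against 25.5, 32.0 and 29.0% in the control libraries. The mean share of 29.7 ± 2.35% in the mutant and 28.8 ± 3.22% in the control (SD, n = 3 each) differed by 0.84 percentage points, less than the spread between libraries.

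Of the 9 listed nuclear genes of complex IV 8 rose, with log2 changes between 0.29 and 0.51, and CG9603 was not called. CoVIII (COX8; FBgn0263911; 3L, 21531958 to 21532547, dm3), a small single-span membrane subunit, changed most. CoVIII had 2925, 3164 and 3335 normalized counts in the mutant libraries, against 2362, 2391 and 1910 in the control libraries, a log2 change of 0.51 ± 0.10 (SE; limma, adjusted p = 0.00449). CoVb (COX5B), the zinc-binding subunit on the matrix side, had 5270, 5280 and 5619 normalized counts in the mutant libraries, against 4267, 3899 and 3491 in the control libraries, and rose by 0.48 ± 0.08. In both genes the mutant libraries were clear of the control libraries, and control 3 was the lowest.

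CoVa (COX5A), its neighbour on the matrix side, rose by 0.42 ± 0.08 (log2, SE), with 10595, 11142 and 11374 normalized counts in the mutant libraries, against 8676, 7956 and 8049 in the control libraries. Subunit 6A is encoded by levy, whose mutants are known for temperature-induced paralysis, and rose by 0.45 ± 0.08. The 6C subunit cype (cyclope) rose by 0.41 ± 0.07, and CoVIb (COX6B), which faces the side where cytochrome c docks, by 0.40 ± 0.07. Normalized counts of levy were 4768 to 4972 in the mutant and 3153 to 3792 in the control libraries. Those of cype were 4588 to 5063 in the mutant and 3562 to 3862 in the control libraries, and those of CoVIb 7716 to 8538 in the mutant and 6008 to 6448 in the control libraries. Their limma adjusted p-values, and that of CoVa, lay between 0.00288 for CoVa and 0.00418 for levy. CoVIIc (COX7C) and CoIV (COX4), the subunit that binds ATP in mammals, had the smallest called changes, 0.38 ± 0.10 and 0.29 ± 0.08. CoVIIc had 4568, 4875 and 4996 normalized counts in the mutant libraries, against 3910, 4123 and 3135 in the control libraries. CoIV had 10506, 10793 and 10909 normalized counts in the mutant libraries, against 9336, 8646 and 8364 in the control libraries. Both calls ended without single libraries: that of CoVIIc without mutant 2, mutant 3 or control 3 (limma, adjusted p = 0.0668, 0.103 and 0.0886), and that of CoIV without any library other than control 1 (0.0570 to 0.104). CoVIIc also overlaps the opposite-strand gene sel by 14 bases, a gene at 20.3% of its level.

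CG9603 (COX7A; FBgn0040529; 3R, 4165665 to 4166763, dm3) encodes subunit 7A, a small membrane subunit that has tissue-specific forms in mammals, and was the least changed member of complex IV. It had 2147, 2197 and 1981 normalized counts in the mutant libraries, against 2354, 2255 and 2055 in the control libraries. The means were 2108 ± 113 in the mutant and 2221 ± 152 in the control (SD, n = 3 each). The log2 change was -0.07 ± 0.08 (SE; limma, adjusted p = 0.597; 95% interval from -0.25 to 0.10), or 0.0114 when scaled by library size alone. The upper end of that interval is below each of the 8 other log2 changes among the listed genes of complex IV.

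The gene that rose most in this family was a paralog outside the 31. CG34172 (COX7AL2 in the reference name table), a further gene of subunit 7A, had 2009, 2358 and 2607 normalized counts in the mutant libraries, against 1317, 1238 and 969 in the control libraries. Its log2 change was 0.99 ± 0.12 (SE), or 1.98-fold (limma, adjusted p = 3.00e-04), and in the authors' deposited table it was 0.98 (adjusted p = 1.13e-13). Within the 3 subunit 7A genes, CG9603, CG34172 and CG18193, the share of CG34172 was 38.7, 41.7 and 46.6% in the mutant libraries, against 29.1, 27.4 and 24.5% in the control libraries. The ratio of CG34172 to CG9603 counts, chosen after the values were seen and not tested, was 0.936, 1.07 and 1.32 in the mutant libraries, against 0.560, 0.549 and 0.471 in the control libraries. CG34172 was the only one called of the 15 measured paralogs of complex III, complex IV and ATP synthase genes. Across all genes 4.73% were called higher, so 1 call among 15 is near that share. The median change of the 15 paralogs was 0.13 (-0.016 relative to ribosomal protein genes). The call of CG34172 held in each of the 16 alternatives run. The paralog of CoVb, CG11043 (COX5BL), lies 121 bases from CoVb and had a log2 change of 0.14 ± 0.11, which was not called.

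**Figure D2:**
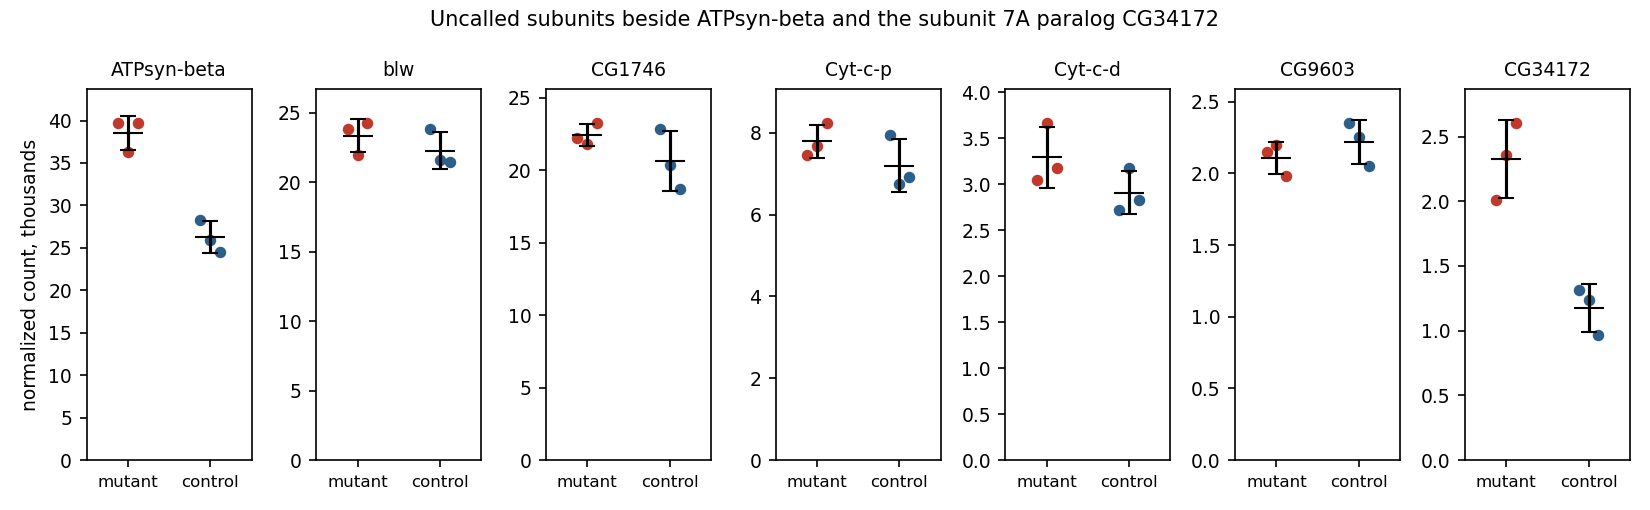
Normalized counts, divided by 1000, for each library (points; mutant left, control right) with mean and SD (n = 3 each), on axes that start at 0 and differ between genes. ATPsyn-beta and CG34172 show separate groups, and blw, CG1746, Cyt-c-p, Cyt-c-d and CG9603 show groups that overlap.

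Of the 13 listed ATP synthase genes 11 rose. Among all 13, F1, taken as the head with its central stalk, held both the largest and the smallest change. The δ subunit of the central stalk, l(1)G0230 (ATPsyndelta; FBgn0028342; X, 10107002 to 10108587, dm3), had 4775, 4930 and 4859 normalized counts in the mutant libraries, against 3252, 3153 and 3072 in the control libraries. The means were 4855 ± 78.0 in the mutant and 3159 ± 89.7 in the control (SD, n = 3 each), a 1.54-fold difference and a log2 change of 0.62 ± 0.07 (SE; limma, adjusted p = 9.32e-05). That is the smallest adjusted p of the 31 genes, and the libraries of each group lay close together. ATPsyn-beta (FBgn0010217; chromosome 4, 1052109 to 1055183, dm3) encodes the β subunit, which carries the catalytic sites. ATPsyn-beta had 39708, 36232 and 39736 normalized counts in the mutant libraries, against 28247, 25937 and 24524 in the control libraries. The means were 38559 ± 2015 in the mutant and 26236 ± 1880 in the control (SD, n = 3 each). The log2 change was 0.56 ± 0.09 (SE; limma, adjusted p = 0.00224). Every mutant library again lay above every control library.

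The α subunit, which alternates with β around the head, is encoded by blw (bellwether; FBgn0011211; 2R, 18686560 to 18689685, dm3) and was not called. It had 23797, 21971 and 24270 normalized counts in the mutant libraries, against 23799, 21559 and 21420 in the control libraries. Control 1 nearly equalled mutant 1 and lay above mutant 2. The means were 23346 ± 1214 in the mutant and 22259 ± 1335 in the control (SD, n = 3 each). The log2 change was 0.07 ± 0.09 (SE; limma, adjusted p = 0.676; 95% interval from -0.13 to 0.26), or -0.0801 relative to ribosomal protein genes. The proteins of blw and ATPsyn-beta occur in equal number in the head. The ratio of ATPsyn-beta to blw counts, chosen after the values were seen and not tested, was 1.67, 1.65 and 1.64 in the mutant libraries, against 1.19, 1.20 and 1.15 in the control libraries. Its mean was 1.65 ± 0.0158 in the mutant and 1.18 ± 0.0301 in the control (SD, n = 3 each), so the libraries of a group differed little in it and the groups lay apart. The central stalk subunits ATPsyn-gamma and sun (stunted, the ε subunit) rose by 0.38 ± 0.07 and 0.40 ± 0.08. ATPsyn-gamma lay at 7849 to 8221 normalized counts in the mutant and 5947 to 6560 in the control libraries, and sun at 2869 to 3165 in the mutant and 2091 to 2503 in the control libraries. Neither gene's groups overlapped.

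All 4 genes of the peripheral stalk, which holds the head still against the rotor, rose. ATPsyn-d had 7324, 8107 and 7599 normalized counts in the mutant libraries, against 5236, 4857 and 4929 in the control libraries, a log2 change of 0.62 ± 0.07 (SE; limma, adjusted p = 2.14e-04). ATPsyn-Cf6 rose by 0.40 ± 0.07, Oscp, which caps the head, by 0.38 ± 0.08 and ATPsyn-b by 0.37 ± 0.07. ATPsyn-Cf6 lay at 5081 to 5565 normalized counts in the mutant and 3832 to 4266 in the control libraries, and Oscp at 5944 to 6366 in the mutant and 4331 to 5263 in the control libraries. ATPsyn-b had in the mutant the smallest SD of the stalk genes relative to its mean, with 8480 ± 45.9 in the mutant against 6579 ± 346 in the control (SD, n = 3 each). The call of Oscp ended without mutant 3 (limma, adjusted p = 0.0530) or control 3 (0.0522).

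In the membrane part 3 of 4 listed genes rose. CG1746 (ATPsynC; FBgn0039830; 3R, 27041866 to 27045352, dm3) encodes subunit c, of which several copies form the rotor ring, and was not called. It had 22266, 21790 and 23291 normalized counts in the mutant libraries, against 22832, 20369 and 18701 in the control libraries. The means were 22449 ± 767 in the mutant and 20634 ± 2078 in the control (SD, n = 3 each). The log2 change was 0.13 ± 0.09 (SE; limma, adjusted p = 0.444; 95% interval from -0.08 to 0.33). The control libraries spread more than the mutant ones, and control 1 lay above 2 mutant libraries. With quantile normalization CG1746 was called, at 0.27 (limma, adjusted p = 0.0434), and relative to ribosomal protein genes its change was -0.0233. The subunits e, f and g are known for joining ATP synthase into dimers, and their genes CG3321, CG4692 and ATPsynG (FBgn0010612, named by its current symbol) rose by 0.47 ± 0.08, 0.29 ± 0.07 and 0.31 ± 0.09. CG3321 lay at 5157 to 5635 normalized counts in the mutant and 3501 to 4083 in the control libraries, and CG4692 at 4933 to 5153 in the mutant and 3894 to 4382 in the control libraries. The g subunit gene ATPsynG had 5388, 5750 and 5924 normalized counts in the mutant libraries, against 5058, 4760 and 4004 in the control libraries, and passed narrowly (limma, adjusted p = 0.0493). Its call ended without any library other than control 1 (0.0643 to 0.167), and that of CG4692 without mutant 2, mutant 3, control 2 or control 3 (0.0503 to 0.0922).

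Levels per length are given for the members only, as mean normalized counts per kilobase of annotated exon. In ATP synthase they ran from 16160 in the mutant and 10996 in the control for ATPsyn-beta to 5512 in the mutant and 4238 in the control for ATPsyn-gamma. On this scale CG1746 had 12018 in the mutant and 11046 in the control, and blw had 10367 in the mutant and 9884 in the control. In the control libraries ATPsyn-beta and CG1746 thus stood at nearly the same level per length, and in the mutant libraries ATPsyn-beta stood above both others. In complex III the highest level was that of CG3560, 13464 in the mutant and 8417 in the control, and the lowest that of CG4769, 5141 in the mutant and 3919 in the control. In complex IV CoVa was highest, at 13866 in the mutant and 10335 in the control, and CG9603 lowest, at 3024 in the mutant and 3187 in the control. Cyt-c-p had 11450 in the mutant and 10574 in the control, and Cyt-c-d 3934 in the mutant and 3473 in the control. The range within a complex was 2.42-fold in complex III, 3.90-fold in complex IV and 2.79-fold in ATP synthase, counted over the means of both groups. The gene l(1)G0230 was left out here because its annotated exons are longer than its span in the deposited coordinates.

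**Figure D3:**
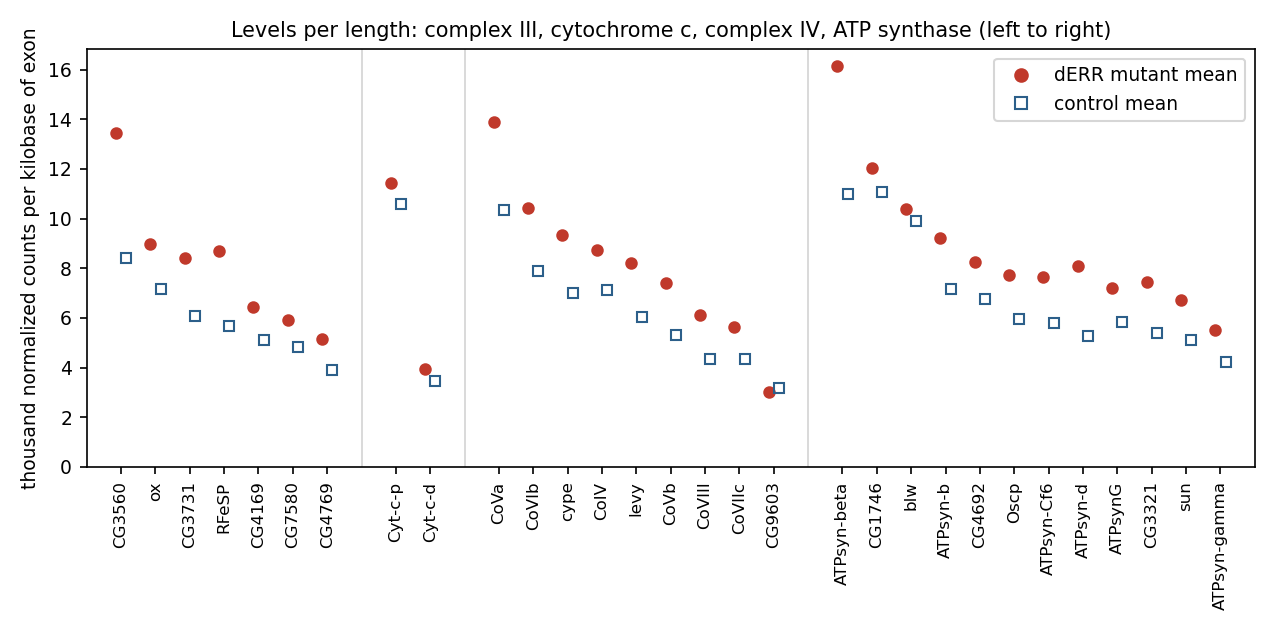
Mean normalized counts per kilobase of annotated exon, divided by 1000, for 30 genes in 4 blocks (complex III, cytochrome c, complex IV, ATP synthase), with mutant means as filled circles and control means as open squares. ATPsyn-beta in the mutant is the highest point at 16160, and CG9603 in the mutant the lowest at 3024.

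Within groups, many members ordered the libraries alike. Mutant 1 was the lowest mutant library in 23 of the 31 genes, mutant 3 the highest in 17 and mutant 2 the highest in 14. Control 1 was the highest control library in 28 genes and control 3 the lowest in 24. The median deviation from the group mean was -0.04 for mutant 1, 0.02 for mutant 2 and 0.03 for mutant 3, and 0.09, 0.00 and -0.09 for control 1, control 2 and control 3 on the log2 scale. Each of these is smaller than the median change of 0.39. The order of libraries was not counted over all genes, so it cannot be read as particular to the members. Without control 1, 26 members were called, and without each other library in turn 18 to 23, with 18 genes called every time. Members that rose came from every chromosome arm they map to: 5 of 7 on 2L, 4 of 5 on 2R, 5 of 5 on 3L, 7 of 9 on 3R, 4 of 4 on X and the 1 on chromosome 4.

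Because cytochrome c connects complexes III and IV, its transcript was set beside theirs, a comparison chosen after the values were seen and not tested. The ratio of Cyt-c-p to CG4769 counts was 0.986, 0.959 and 1.05 in the mutant libraries, against 1.24, 1.17 and 1.22 in the control libraries. The ratio of Cyt-c-p to CoIV counts was 0.710, 0.712 and 0.756 in the mutant libraries, against 0.851, 0.781 and 0.826 in the control libraries. Both ratios were below every control value in all 3 mutant libraries.

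The subunits encoded in mitochondrial DNA varied more between libraries, and mt:ATPase8 was not analysed here. Of the 5 measured, 0 were called by limma (trend and voom) and 0 had a p under 0.05 before adjustment. Across all genes 4.73% were called higher and 9.47% lower, so 0 calls among 5 genes do not set them apart. The median change of the 5 was -0.13. That median was 0.058 with quantile normalization and 0.024 without control 3. The complex IV core subunit mt:CoI had 54618, 42845 and 50842 normalized counts in the mutant libraries, against 55019, 53600 and 53332 in the control libraries, a log2 change of -0.13 ± 0.11 (SE; 0.20 with quantile normalization). The other core subunits mt:CoII and mt:CoIII had changes of 0.14 ± 0.12 and -0.06 ± 0.16, cytochrome b of complex III (mt:Cyt-b) -0.24 ± 0.32 and the ATP synthase subunit mt:ATPase6 -0.23 ± 0.24. The groups overlapped in all 5, and mt:Cyt-b ranged from 298 to 407 in the mutant and from 257 to 803 in the control libraries. Without control 3, the change of mt:Cyt-b was 0.245 and that of mt:ATPase6 0.0852. Poly(A) selection recovers mitochondrial transcripts unevenly, and how far it did so in each library was not tested. The counts of the 9 listed nuclear complex IV genes were divided by those of mt:CoI, mt:CoII and mt:CoIII, a comparison that was not planned and not tested. The ratios were 0.595, 0.808 and 0.705 in the mutant libraries, against 0.546, 0.502 and 0.484 in the control libraries. In mutant 2, which gave the highest ratio, mt:CoI and mt:CoIII had their lowest counts of all libraries, 42845 and 10931.

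Other nuclear genes of the same complexes, found by their symbols in the reference name table, rose in 3 of 3 cases. The subunit 7B gene CG7630 (COX7B) had 5248, 5647 and 5631 normalized counts in the mutant libraries, against 4111, 3931 and 3610 in the control libraries, a log2 change of 0.51 ± 0.08 (SE; limma, adjusted p = 9.93e-04). The complex III genes CG14482 (UQCR-6.4) and Ucrh (UQCR-11) rose by 0.39 ± 0.10 and 0.33 ± 0.08. Only 1 of the 3 was called without mutant 3, without control 3 or relative to ribosomal protein genes. Of 9 assembly factors 3 rose. Cchl, which attaches heme to cytochrome c, rose by 0.36 ± 0.08. CG5037 (Cox10), which carries out a step in making the heme of complex IV, rose by 0.27 ± 0.07. CG9065 (Cox17), a copper carrier, rose by 0.31 ± 0.09. The assembly list's median was 0.25, the calls fell to 1 or 2 without single libraries, and 0 stood relative to ribosomal protein genes. Of 39 complex I genes, the entry point of the chain, 30 rose with a median of 0.44. The 39 include 6 paralogs, of which 0 were called and the median was 0.08. Without these paralogs 30 of 33 rose with a median of 0.48. Of the 31 members, which include the paralog Cyt-c-d, 26 rose with a median of 0.39. Relative to ribosomal protein genes 23 of these 33 complex I genes were called, and 10 of the 31 members. Without single libraries the numbers called were 25 to 31 for complex I and 18 to 26 for the members. The difference between these lists was not tested. The complex I genes with the smallest adjusted p, CG5703 (ND-24), CG3192 (ND-ASHI), CG1970 (ND-49) and ND42, rose by 0.74, 0.71, 0.68 and 0.63. CG3192 overlaps l(1)G0255 by 654 bases, a gene at 175.8% of its level whose log2 change was 0.37.

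**Figure D4:**
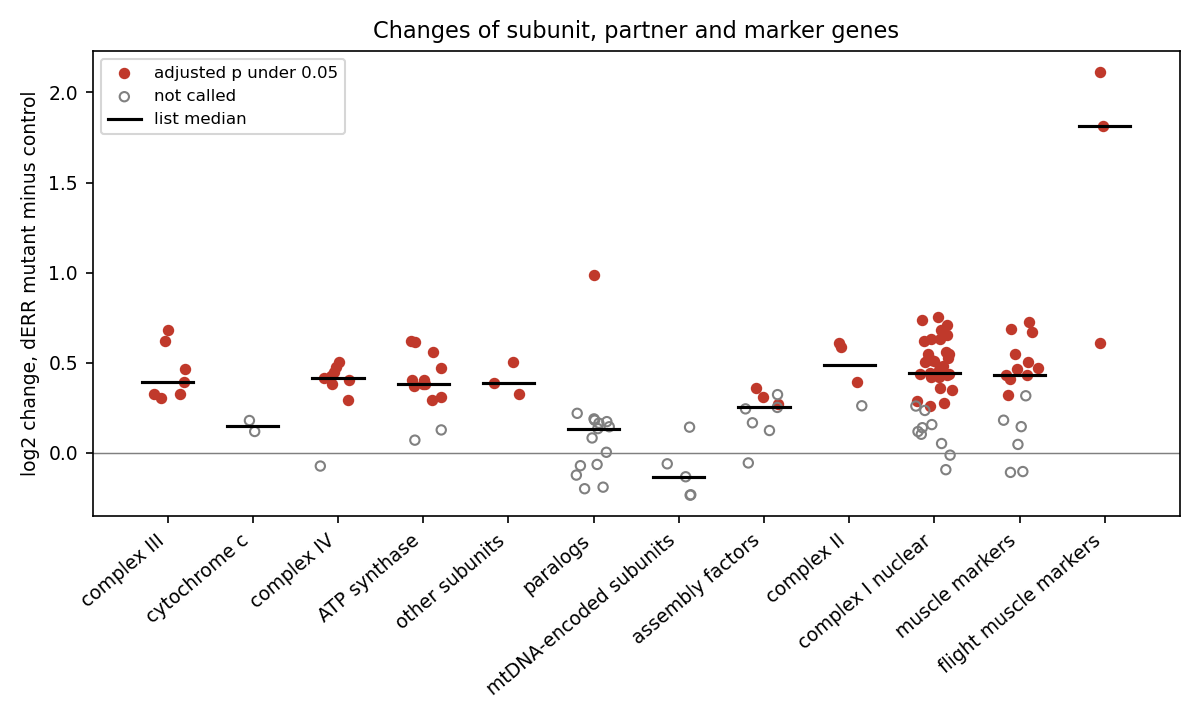
Log2 change (mutant minus control) of each gene by list, filled where the limma adjusted p was under 0.05 and open where it was not, with the list median as a bar. Complexes III and IV and ATP synthase have medians of 0.39, 0.41 and 0.38, the genes encoded in mitochondrial DNA a median of -0.13, and the flight muscle markers Act88F and TpnC4 the largest changes, 2.11 and 1.81.

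Among markers of tissues in the whole fly, 14 of 20 muscle markers were called higher. All 3 flight muscle markers rose: the actin Act88F by 2.11 ± 0.09 (log2, SE), the troponin C gene TpnC4 by 1.81 ± 0.13 and the myosin-binding protein flightin (fln) by 0.61 ± 0.09. Their summed level was 14283 to 15202 in the mutant and 3937 to 4988 in the control libraries. TpnC4 overlaps the opposite-strand gene CG30438 by 4431 bases, over its whole length. CG30438 stood at 79.7% of the level of TpnC4 and had a log2 change of -0.59 (limma, adjusted p = 2.1e-04). Of 17 further muscle genes 11 rose, with a median of 0.43 close to that of the respiratory members, led by the myosin light chain Mlc1 (0.69 ± 0.08), the troponin T gene up (0.67 ± 0.08), the myosin light chain Mlc2 (0.73 ± 0.10) and the tropomyosin Tm2 (0.55 ± 0.08) in order of adjusted p. The 6 not called were Mhc, Act57B, bt and TpnC73F (0.18, 0.14, 0.05 and 0.32), and sls and Mf (both -0.11). The summed level of all 20 muscle markers was 280368 to 331613 in the mutant and 234597 to 270833 in the control libraries. Of 13 testis markers 0 were called by limma (trend and voom), 5 had a p under 0.05 before adjustment and their median change was 0.21, with summed levels of 74194 to 84142 in the mutant and 62859 to 74108 in the control libraries. The number called was 4 with library size alone, 2 with upper quartile scaling or without mutant 1, and 1 with quantile normalization or a robust variance prior, and the authors' deposited table put Mst87F under 0.05 (adjusted p = 0.022). The testis genes loopin-1 and Mst98Ca had changes of 0.15 ± 0.10 and 0.22 ± 0.09. All 5 accessory gland markers fell, with a median of -1.32. In order of adjusted p they were the seminal fluid genes Acp26Aa, Dup99B, Acp62F, Acp76A and Acp36DE (-1.38, -1.32, -1.28, -1.21 and -1.45). Their summed levels were 20659 to 25062 in the mutant and 56339 to 64955 in the control libraries. Of 5 neuron and 3 photoreceptor markers 0 were called by limma (trend and voom), with 0 at a p under 0.05 before adjustment, and no marker of these lists was at 0 in any library.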

How the data were processed

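A single table of 13035 genes was used. For each library the authors deposited a signal made by dividing whole reads per gene by a size factor (normalized counts; the division was read from the values). The authors' own comparison stands beside it and, per the file headers, gives log2 fold changes, their standard errors, a Wald score and p-values before and after adjustment. The submitters' processing notes name Novoalign, DESeq2 and dm3. How reads were counted, with which strand setting and annotation, was not given in the sources used here. In 3 columns the steps between values were too close to 1 for recovered reads to be accepted, so no count model was fitted.

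All 6 libraries and all genes, with no filter, were fitted with limma 3.58.1 (lmFit, eBayes with trend; R 4.3.3) on log2(normalized count + 1), with a group term only and Benjamini-Hochberg adjustment over 13035 genes, at a threshold of 0.05. This scale slightly understates changes of low genes. The script was tested on simulated data with a fixed spread between libraries. It recovered 40% of genes changed 1.4-fold, 76% at 1.5-fold, 98% at 2-fold and 100% at 4-fold. That spread was not taken from these libraries, so the shares recovered do not carry over to the members. Scaling by trimmed mean of M-values was written out in the fitting script. Python 3.11.15, pandas 2.3.3, numpy 2.4.6 and matplotlib 3.10.9 were used. Names and exon lengths came from a reference on another build (12526 of 13035 identifiers found); coordinates are the deposited ones. Overlapping genes are given from 20% of the member's level.

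The members, the other gene lists and the tests were chosen with earlier results of these data known. All members were named. From each other list up to 4 called genes in each direction were named, by adjusted p, or otherwise the 2 most abundant by counts. SdhA, CG11043, Spargel, Mst87F, Acp36DE and the 6 uncalled muscle genes were named after their values were seen. The neuron and photoreceptor genes are given as lists only. Planned promoter motif and protein comparisons were not made, as no sequence was used here.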

Additional observations from a re-analysis of the deposited data

How the results depend on the processing

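No paired analysis was possible because the labels give no replicate numbers and no pairing, and the numbers used here only name libraries. The 16 alternatives changed the scaling, filter, pseudocount or test, or left out a library. Of the 31 members 11 kept their direction and side of the threshold in all of them. ERR kept its call in each, with log2 changes from -2.19 to -1.92. The number of members called higher was 26, or 27 with quantile normalization, under each alternative that kept all libraries, apart from scaling to ribosomal protein genes. That scaling gave 10 members (RFeSP, CG3731, CG3560, CoVb, levy, CoVIII, ATPsyn-beta, l(1)G0230, ATPsyn-d and CG3321) and medians of 0.24 for complex III, 0.26 for complex IV, 0.23 for ATP synthase, 0.24 for all members and -0.00148 for cytochrome c. By construction it subtracts the rise of ribosomal protein genes from every gene, so the median of all genes became -0.145, that of the regulators listed below -0.089 and that of the paralogs -0.016. Among genes not called, the log2 changes under it were -0.032 for Cyt-c-p, -0.0801 for blw, -0.0233 for CG1746, -0.00792 for mt:CoII, -0.00543 for CG11043 and -0.00289 for loopin-1. With library size alone they were 0.0114 for CG9603 and 0.0239 for mt:CoIII. Leaving out a library gave 18 to 26 members called and 0 lower, medians of 0.36 to 0.45 for complex III, 0.38 to 0.45 for complex IV, 0.34 to 0.44 for ATP synthase, 0.11 to 0.19 for cytochrome c and 0.35 to 0.44 for all members, and a mutant minus control difference in the share of Cyt-c-d of -0.818 to 2.401 percentage points. The cause of single calls lost was not tested. Leaving out a library gave medians of -0.0017 (without control 1) to 0.0070 for all genes, of -0.220 to 0.0240 (without control 3) for the genes encoded in mitochondrial DNA, and of -0.178 to 0.0236 (without mutant 2) for the neuron markers. Among the mitochondrially encoded genes, mt:Cyt-b ran from -0.573 (without control 1) to 0.245 (without control 3), mt:ATPase6 from -0.540 (without control 1) to 0.0852 (without control 3) and mt:CoIII from -0.22 to 0.14 (without mutant 2). Quantile normalization gave 0.0582 for the median of the genes encoded in mitochondrial DNA and for mt:CoIII, and 0.197 for mt:CoI. With 3 libraries a group, the 95% intervals of the 5 uncalled members still hold changes of up to 0.10 (CG9603) to 0.38 (Cyt-c-d) in log2.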

Other observations

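Complex II, which feeds electrons to complex III through ubiquinone and has no subunit encoded in mitochondrial DNA, rose in 3 of 4 genes. SdhC, a membrane anchor, rose by 0.61 ± 0.07 (log2, SE), SdhB, the iron-sulfur subunit, by 0.59 ± 0.08 and CG10219 (SdhD) by 0.39 ± 0.07. The flavoprotein subunit SdhA had a change of 0.26 ± 0.08 and was not called (limma, adjusted p = 0.0516), while the authors' deposited table put all 4 genes under an adjusted p of 0.05. Among 6 regulators of mitochondrial gene expression, TFAM, which packages and transcribes mitochondrial DNA, rose by 0.46 ± 0.08 (limma, adjusted p = 0.00280), although it overlaps CG5412, a gene at 34.6% of its level. The fly PGC-1 homolog Spargel had a change of -0.13 ± 0.10 and was not called, nor were the other 4 regulators. No change was called in the 5 measured transcripts of mitochondrial DNA given above, whose standard errors ran from 0.11 to 0.32. Their relation to TFAM was not tested.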
